A study of Arabidopsis thaliana with 20 samples.

Results

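ARR15 (AT1G74890) and ARR16 (AT2G40670) are type-A response regulators of cytokinin signalling, and their transcripts were followed through the first 5 days of synchronised flower formation in Arabidopsis thaliana. They were chosen as named genes with earlier results of these data known, so their p-values are not those of genes picked blind. They are 2 of the 17197 genes that carried a named probe. Each had 1 probe, and ARR16 is listed on the array as RR16. Of the 10 type-A regulators of the family, these were the 2 with a named probe here, and the others were not analysed here.

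Cytokinin is sensed by histidine kinase receptors, and phosphotransfer proteins carry the phosphate to the nucleus. There it activates type-B response regulators, which are transcription factors that switch on the type-A genes. The type-A proteins lack a DNA-binding output domain and dampen the signal that induced them, so their transcripts are widely used as a readout of cytokinin response. In the shoot apex ARR15, together with its relative ARR7, is known to act beside WUSCHEL and CLAVATA3 in the control of stem cells. ARR16 is known from the stomatal lineage of the leaf epidermis as well as from roots and shoots.

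The plants were 35S:AP1-GR ap1 cal, a line that lacks functional APETALA1 and CAULIFLOWER and expresses, from the broadly active 35S promoter, APETALA1 joined to a hormone-binding domain of the glucocorticoid receptor. Such plants make inflorescence-like meristems in place of flowers until 1 µM dexamethasone, given here with ethanol and the wetting agent Silwet L-77, releases the fusion protein into the nucleus. Inflorescence tissue of about 25 plants per time point was pooled on days 0, 1, 2, 3, 4 and 5, in 4 biologically independent sets. Each of 20 two-colour arrays compared 2 consecutive days of 1 set, so each of the 5 one-day intervals had 4 arrays. The dye Cy5 marked the later day on 2 of them and Cy3 on the other 2. All groups shared the genotype and the treatment, and no plants without dexamethasone were analysed here, so the response to APETALA1, the treatment and the passage of time cannot be told apart. The tissue was a mixture of cells, and a lower ratio from fewer cells of a type cannot be told apart from one of less RNA per cell.

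Values are log10 ratios, later day divided by earlier day, on which 0 is no difference and 1 is 10-fold. They are changes, not levels, and ARR15 and ARR16 cannot be ranked against each other by abundance. Between 30142 and 30180 of 30194 probes had a value on each array, and 28633 features (17185 of them named genes) were tested. Each gene had a value on all 20 arrays, and none stood at the limit of the scale. The labels do not state which dye is the numerator, and the direction given below is therefore likely rather than settled. If the ratios ran the other way, every rise below would be a fall and every fall a rise. If they had been turned to the later day before deposit, neither gene would pass in an interval or net (limma adjusted p = 0.147 for the net change of ARR16 and 0.304 for that of ARR15).

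ARR16 rose from day 3 to day 4. The log10 ratio was 0.862 in set 1, 0.419 in set 2, 0.790 in set 3 and 0.601 in set 4. All 4 sets were above 0, and the lowest of them was close to the highest value of any set in the 3 earlier intervals, 0.420. The mean was 0.668 ± 0.199 (SD, n = 4), a 4.66-fold rise with a 95% interval of 0.433 to 0.903 on the log10 scale (adjusted p = 0.00425, limma fit to 20 arrays). In this interval 0.981% of all features were called higher, 16.4% had the same sign in all 4 sets, and 58 of 28633 had a larger ratio than ARR16. The rise was no longer past the threshold without set 1 (adjusted p = 0.0852) or without set 2 (adjusted p = 0.0882), or when limma was fitted to the 4 arrays of the interval alone (adjusted p = 0.209).

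No other single interval passed the test for ARR16. From day 0 to day 1 its log10 ratios were 0.114, 0.119, -0.0793 and 0.309 in sets 1 to 4, with a mean of 0.116 ± 0.159 (SD, n = 4; limma adjusted p = 0.698). From day 1 to day 2 they were 0.420, -0.134, 0.0252 and -0.383 (mean -0.0178, limma adjusted p = 0.975). The sets disagreed in sign in both intervals. From day 2 to day 3 the ratios were -0.305, 0.166, -0.226 and 0.335 (mean -0.00730, limma adjusted p = 1). From day 4 to day 5 they were -0.0513, 0.247, 0.611 and -0.0686, with a mean of 0.185 ± 0.319 (SD, n = 4; limma adjusted p = 0.572). Here set 3 held most of the mean, and sets 1 and 4 lay slightly below 0.

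**Figure D1:**
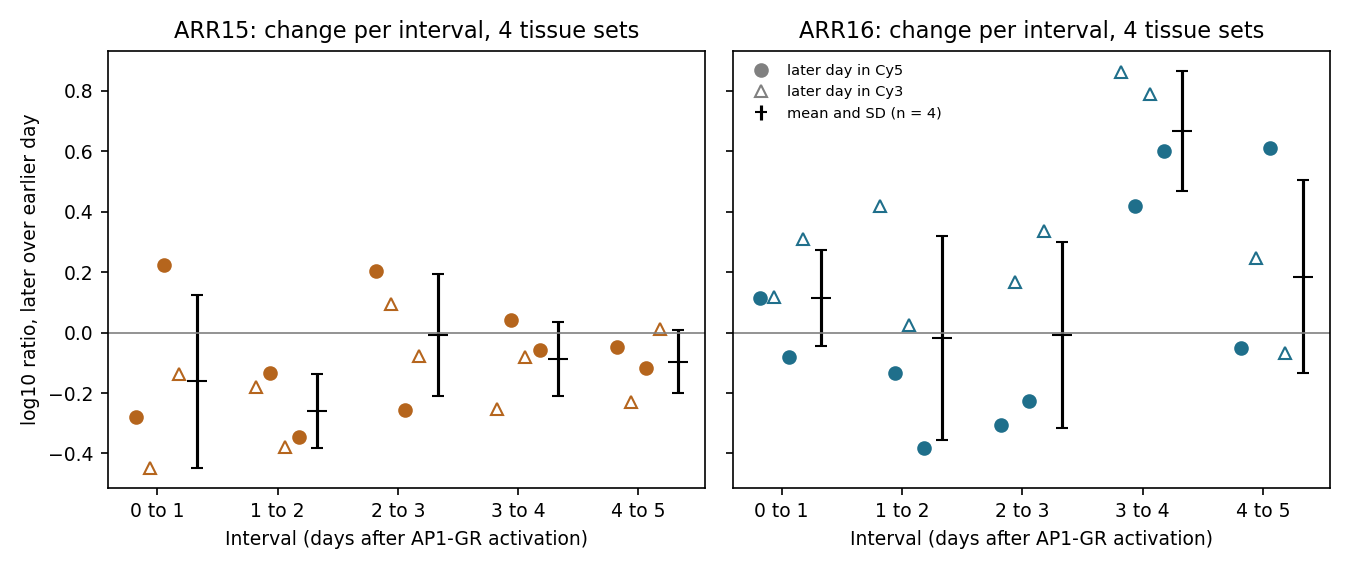
Log10 ratio (later over earlier day) for ARR15 (left) and ARR16 (right) in each one-day interval, with 1 point per tissue set, filled where the later day was in Cy5 and open where it was in Cy3, and the mean and SD of 4 sets beside them. All 4 ARR16 values from day 3 to day 4 lie between 0.419 and 0.862, while all 4 ARR15 values from day 1 to day 2 lie between -0.380 and -0.133.

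The spread of ARR16 between sets followed the dyes in part. In 4 of the 5 intervals both arrays with the later day in Cy5 lay below both arrays with the later day in Cy3, the exception being day 4 to day 5. The dye coefficient of ARR16 was -0.132 on the log10 scale (limma adjusted p = 0.0558) and was larger in size than that of 91.6% of features. From day 3 to day 4 the mean was 0.510 over the 2 arrays with the later day in Cy5 and 0.826 over the other 2, so both dye orientations showed the increase. After subtraction of the dye coefficient the 4 values of that interval were 0.730, 0.551, 0.658 and 0.733, and their SD went from 0.199 to 0.0853. The coefficient was fitted to these same arrays, so part of the narrowing is built in. The SD also fell in the earlier intervals, and from day 4 to day 5 it rose from 0.319 to 0.398. For ARR15 the dye coefficient was 0.0457 (limma adjusted p = 0.383). Both genes were noisier than most, with residual SDs of 0.179 for ARR15 and 0.235 for ARR16, above those of 88.0% and 91.9% of features.

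ARR15 was lower on day 5 than on day 0. Added over the 5 intervals within a set, its log10 ratios came to -0.559 in set 1, -0.674 in set 2, -0.606 in set 3 and -0.606 in set 4. The 4 sets were all below 0 and lay within a narrow range. The mean was -0.611 ± 0.0471 (SD, n = 4), 4.09-fold lower, with a 95% interval of -0.719 to -0.504 (adjusted p = 0.0131, limma on the 4 sums). Of 28615 features 1.3% were called lower in this comparison, 27.5% had the same sign in all 4 sets, and 508 had a lower mean than ARR15. The call depends on how tightly the 4 sums agree: with the spread of the 20 single arrays in its place, the same change had an adjusted p of 0.106, and without any 1 set the limma adjusted p was 0.0671 to 0.0985, at which no feature was called.

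No single interval passed the test for ARR15. From day 0 to day 1 its log10 ratios were -0.281, -0.448, 0.224 and -0.137 in sets 1 to 4, with a mean of -0.161 ± 0.286 (SD, n = 4; limma adjusted p = 0.411). Set 3 stood above 0 and the others below, and the mean was -0.274 without set 3 (limma adjusted p = 0.0717) and -0.0685 without set 2 (adjusted p = 0.858). From day 1 to day 2 the ratios were -0.179, -0.133, -0.380 and -0.346, with a mean of -0.260 ± 0.122 (SD, n = 4; limma adjusted p = 0.180). This was the interval in which all 4 sets of ARR15 lay below 0, a mean 1.82-fold lower, and 15.9% of all features had the same sign in all 4 sets there. From day 2 to day 3 the ratios were 0.203, 0.0962, -0.255 and -0.0761 (mean -0.00791, limma adjusted p = 1). From day 3 to day 4 they were -0.254, 0.0423, -0.0793 and -0.0571 (mean -0.0871, limma adjusted p = 0.868). In the last interval they were -0.0477, -0.231, -0.116 and 0.0107 (mean -0.0961, limma adjusted p = 0.731), and no single interval held as much as the net change.

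ARR16 was higher on day 5 than on day 0. Its sums over the 5 intervals were 1.04, 0.819, 1.12 and 0.793 in sets 1 to 4, and none came near 0. The mean was 0.943 ± 0.162 (SD, n = 4), 8.77-fold higher, with a 95% interval of 0.749 to 1.14 (adjusted p = 0.0159, limma on the 4 sums). In this comparison 1.57% of features were called higher, and 198 had a higher mean than ARR16. Formed from the fit to 20 arrays the same change had an adjusted p of 0.0477 (1.8% of features called higher), and with the tissue set as a block 0.0987. Without any 1 set the limma adjusted p was 0.0671 to 0.103, and again no feature was called.

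**Figure D2:**
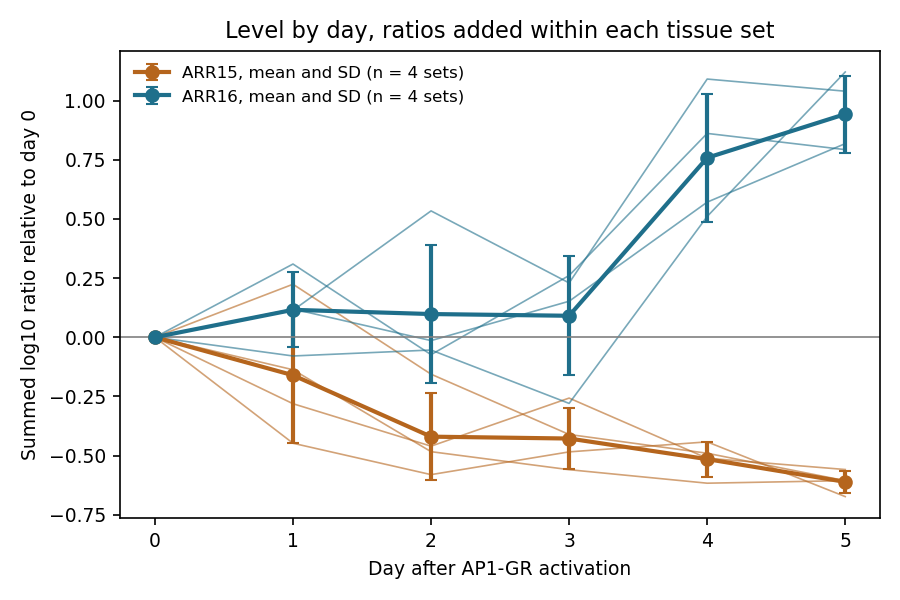
Log10 ratio relative to day 0, made by adding the ratios of each tissue set up to the day on the horizontal axis, for ARR15 (orange) and ARR16 (blue), with thin lines for the 4 sets and thick lines for their mean and SD. The mean of ARR16 stays near 0 up to day 3 (0.0907) and reaches 0.759 on day 4, while set 1 of ARR16 lies at 0.534 on day 2. The mean of ARR15 goes down to -0.420 by day 2 and to -0.611 by day 5.

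Set by set, the cumulative values show the course of each gene relative to day 0. ARR16 stood at 0.116 ± 0.159 on day 1, 0.0980 ± 0.292 on day 2 and 0.0907 ± 0.251 on day 3 (mean log10 ratio to day 0 ± SD, n = 4). It then stood at 0.759 ± 0.270 on day 4 and 0.943 ± 0.162 on day 5. On day 3 the sets ran from -0.280 to 0.261, and on day 4 from 0.511 to 1.09. Days 2 and 4 overlapped, since set 1 stood at 0.534 on day 2, above the lowest set of day 4. Of the 10 pairs of days more than 1 day apart, 4 differed for ARR16 in the limma fit. Day 5 was above day 3 by 0.853 (7.12-fold, limma adjusted p = 0.00587, where 1.76% of features were called higher), above day 2 by 0.845 (adjusted p = 0.0220, 2.02% called higher) and above day 0. Day 4 was above day 2 by 0.661 (limma adjusted p = 0.0379, 1.49% called higher). The differences of day 4 from day 0 and from day 1 were of like size, 0.759 and 0.643, and did not pass (limma adjusted p = 0.0815 and 0.105). Days 0, 1, 2 and 3 were not separated from each other, and neither were days 4 and 5. With the tissue set as a block, or with no dye coefficient, 1 of the 10 pairs passed, and with all arrays scaled to 1 spread 7 did. The number was 0 without set 1 or set 2, 3 without set 3 and 1 without set 4.

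For ARR15 the order of the days was 0, 1, 2, 3, 4 and 5 from high to low. The mean log10 ratio to day 0 was -0.161 ± 0.286 on day 1, -0.420 ± 0.184 on day 2, -0.428 ± 0.129 on day 3, -0.515 ± 0.0737 on day 4 and -0.611 ± 0.0471 on day 5 (SD, n = 4). From day 2 on every set lay below 0, with values of -0.581 to -0.156 on that day. The SD of the sets became smaller along the series, although each step added another array. None of the 10 pairs of days more than 1 day apart passed the limma test at an adjusted p of 0.05, and 7 had an unadjusted p under 0.05. Without set 3, 1 pair passed. Day 2 against day 0 had a limma adjusted p of 0.0721 (3.27% of features called in either direction), and neighbouring days did not differ beyond their spread.

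Whether the change of a gene differed between intervals was asked separately. An F test for change in any interval passed for ARR16 (limma adjusted p = 0.0179) and not for ARR15 (adjusted p = 0.250), against 5.32% of features called. The call for ARR16 did not hold with the tissue set as a block (adjusted p = 0.0602) or with no dye coefficient (adjusted p = 0.0611), nor without set 1, 2 or 4 (adjusted p = 0.147, 0.234 and 0.0937). The F test for a difference between intervals had an adjusted p of 0.0686 for ARR16 and 0.609 for ARR15, with 3.12% of features called. Of the 10 pairs of intervals, 0 differed for either gene at an adjusted p of 0.05 in limma, and at an unadjusted p under 0.05 the counts were 4 for ARR16 and 0 for ARR15. All 4 involved the step from day 3 to day 4: it exceeded the change from day 1 to day 2 by 0.686 (limma adjusted p = 0.0664, 0.545% of features called) and that from day 0 to day 1 by 0.552 (adjusted p = 0.101, 1.75% called). It exceeded the step before it by 0.675 (limma adjusted p = 0.314, 0.00698% called) and the one after it by 0.483 (adjusted p = 0.383, 0.0279% called). The ARR16 rise is thus past the threshold in 1 interval without being shown to differ from the changes in the other 4.

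The 2 regulators moved apart. The per-array difference, ARR16 minus ARR15, was 0.755 from day 3 to day 4 (95% interval 0.452 to 1.06, limma adjusted p = 0.0114). Most of that was the ARR16 rise of 0.668, since ARR15 changed by -0.0871 and did not pass (limma adjusted p = 0.868). Over all 5 intervals the difference was 1.55, a 35.9-fold change of the ratio of the 2 genes (95% interval 1.38 to 1.73, limma adjusted p = 0.00863). ARR16 gained on ARR15 in all 4 sets in both comparisons, and the exact sign-flip permutation test over 4 sets then gave p = 0.125, the smallest it can give. The limma call from day 3 to day 4 was lost without set 1, 2 or 4 (adjusted p = 0.169, 0.125 and 0.127). That for the net change was lost without set 1, 2 or 3 (adjusted p = 0.0733, 0.0805 and 0.0535). In the other intervals the difference was 0.276, 0.242, 0.000618 and 0.281 in order of time, and none passed (limma adjusted p of 0.401 or more). The last of these was 0.0559 without set 3 and 0.470 without set 4. Over the 20 arrays, with the dye coefficient removed, the ratios of the 2 genes had a Pearson r of 0.0574. These points share sets and neighbouring samples and are given as a description.

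**Figure D3:**
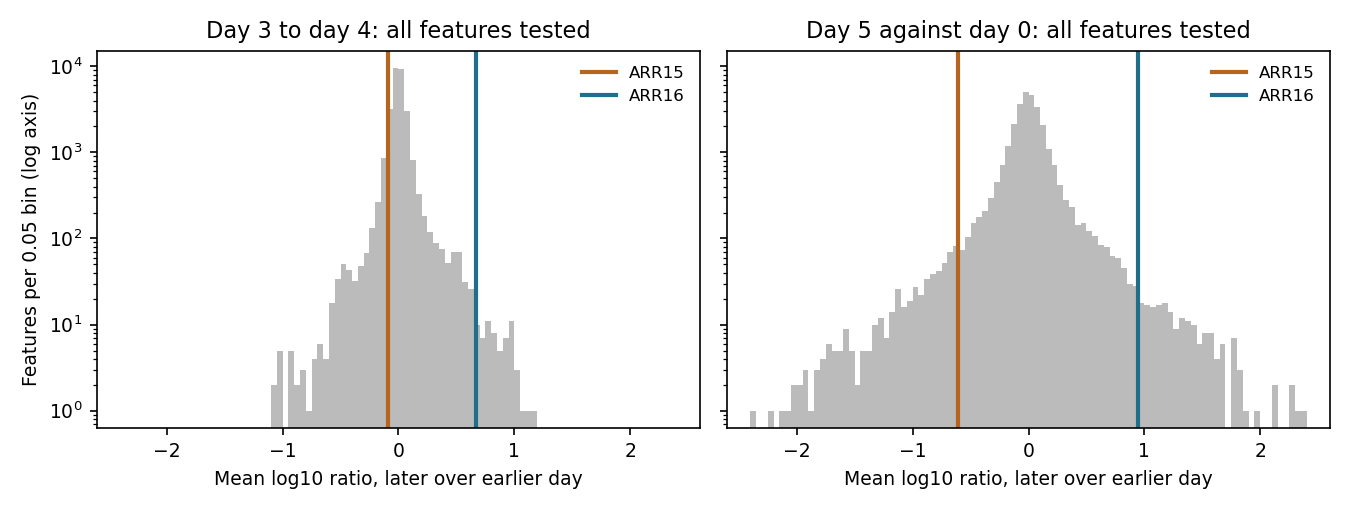
Number of features (log axis) per 0.05-wide bin of the mean log10 ratio from day 3 to day 4 (left) and of day 5 against day 0 (right), with vertical lines at ARR15 (orange) and ARR16 (blue). From day 3 to day 4 ARR16 (0.668) lies far into the upper tail and ARR15 (-0.0871) near the bulk, and for day 5 against day 0 they lie in opposite tails at 0.943 and -0.611.

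The other measured genes of the cytokinin pathway passed no test. A list of 76 genes, from synthesis to response, had 9 members with a named probe, ARR15 and ARR16 included. The 7 others were the type-B response regulators ARR18, ARR19 and ARR21, the type-C response regulators ARR22 and ARR24, which resemble type-A proteins but are not induced by cytokinin, and UGT76C1 and UGT76C2, which inactivate cytokinins by attaching glucose to a ring nitrogen. Receptors, phosphotransfer proteins, and genes of cytokinin synthesis, activation, degradation and transport had no named probe and were not analysed here. None of the 7 was called in any interval or in the net change by limma. Of all features 0.419% to 3.32% were called in an interval and 2.87% in the net change. A count of 0 of 7 is near those shares and does not show that the pathway was unchanged. At an unadjusted p under 0.05 there were 2 from day 0 to day 1, 0 in each of the next 2 intervals, 1 in each of the last 2 and 0 in the net change. Of all 28633 features, 4187, 3853, 2433, 2804 and 3241 had such a p in the 5 intervals in order of time. In the net change 5029 of 28615 did.

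From day 3 to day 4 and over all 5 intervals their mean changes were smaller in size than those of ARR16, while ARR24 exceeded ARR16 in size in the 4 other intervals. Mean log10 ratios of the 7 genes ran from -0.166 to 0.0205 from day 0 to day 1, where 3.32% of all features were called in either direction, and from -0.0960 to 0.0229 from day 1 to day 2, where 1.15% were. In the next 2 intervals they ran from -0.0922 to 0.0340 and from -0.0793 to 0.0663, with 0.419% and 1.35% of features called. From day 4 to day 5 they ran from -0.220 to 0.0910 with 0.758% called, and for day 5 against day 0 from -0.414 to 0.0917 with 2.87% called. The -0.220 is the fitted coefficient of ARR24, whose plain mean over 3 arrays was -0.229. The median of the 7 was within 0.04 of 0 throughout, for example 0.0148 from day 3 to day 4 and 0.0282 for the net change, against -0.00327 for all features in the latter. The lowest net value, -0.414, is that of ARR24 and rests on 3 sets, since set 3 had no value from day 4 to day 5. UGT76C1, singled out after its values were seen, had the lowest adjusted p of the 7: from day 0 to day 1 its ratios were -0.207, -0.155, -0.0328 and -0.0874 (limma adjusted p = 0.0903), and without set 3 it was called (adjusted p = 0.0365).

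**Figure D4:**
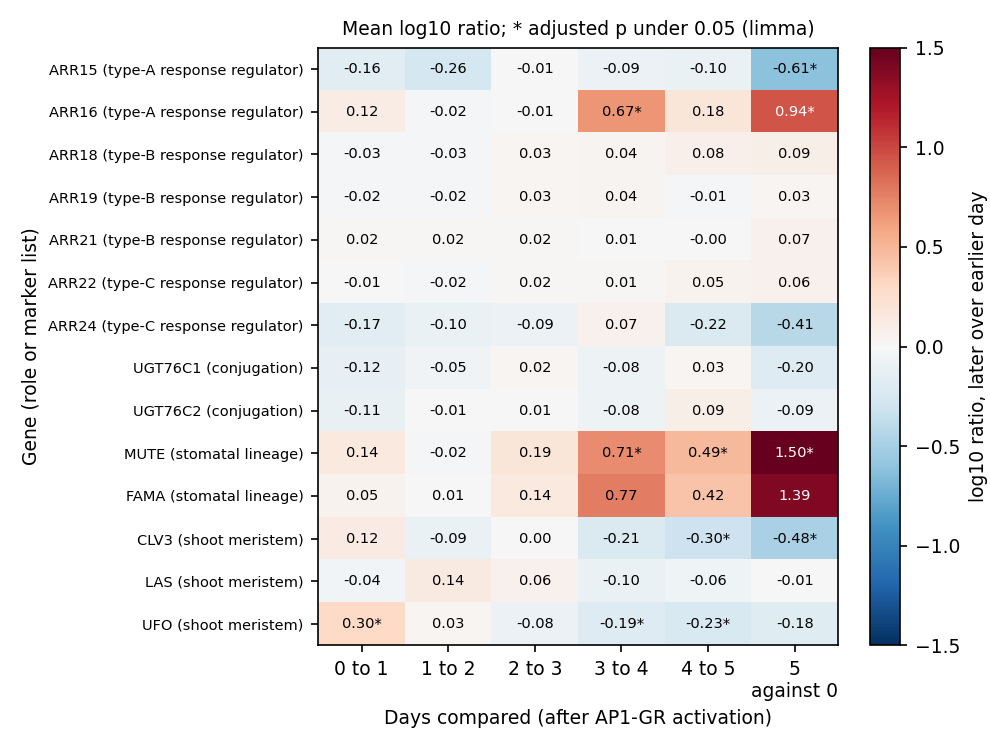
Mean log10 ratio of ARR15, ARR16, the 7 other measured cytokinin genes and the measured marker genes of the stomatal lineage and the shoot meristem, in each one-day interval and for day 5 against day 0, with red for higher and blue for lower on the later day and a star for a limma adjusted p under 0.05. Among the cytokinin genes the stars are those of ARR16 from day 3 to day 4 (0.67) and of both type-A genes for day 5 against day 0. For ARR24 from day 4 to day 5, where set 3 had no value, the fitted coefficient is shown in place of the mean.

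MUTE, a gene of the stomatal lineage, rose in the same interval as ARR16. Of 9 listed markers 2 had a named probe, MUTE and FAMA, which encode bHLH proteins that act in turn in stomatal precursors and guard cell formation. MUTE had log10 ratios of 0.748, 0.440, 0.731 and 0.903 from day 3 to day 4, and it rose 5.08-fold (0.706 ± 0.193, SD, n = 4; limma adjusted p = 0.000424). In that interval 0.981% of all features were called higher. MUTE rose again from day 4 to day 5 (0.489, limma adjusted p = 0.0149), where 0.758% of features were called in either direction. It also rose over all 5 intervals (1.50 ± 0.337, SD, n = 4; limma adjusted p = 0.0191), with sums of 1.03 to 1.78 in the 4 sets and 1.57% of features called higher. The MUTE call from day 4 to day 5 was lost without set 1, 2 or 3 (limma adjusted p = 0.128, 0.160 and 0.139) and with all arrays scaled to 1 spread (0.0987). Its net call was lost without any 1 set (limma adjusted p = 0.0824 to 0.105). With the net dye sign as a covariate the net call lay just under the threshold (limma adjusted p = 0.04997). FAMA had values of 0.305, 0.120, 2 and 0.651 from day 3 to day 4, the 2 of set 3 being the limit of the scale, and did not pass (limma adjusted p = 0.0578). Its net sums ran from 0.859 to 2.63 (limma adjusted p = 0.131). Over the 20 arrays, dye coefficient removed, ARR16 had a Pearson r of 0.767 with MUTE and 0.524 with FAMA, and ARR15 had 0.235 and 0.202. The part of stomatal cells in the ARR16 result was not tested.

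Of 12 shoot meristem markers 3 had a named probe. CLV3, the peptide gene of the stem cells, was lower in all 4 sets from day 4 to day 5 (mean -0.305, limma adjusted p = 0.0297) and over all 5 intervals (-0.485 ± 0.106, SD, n = 4; adjusted p = 0.0285), the same direction as ARR15. Of all features 0.758% were called in either direction from day 4 to day 5, and 1.3% were called lower in the net change. The CLV3 call from day 4 to day 5 was lost with the tissue set as a block (adjusted p = 0.0922), with scaled arrays (0.0987) and without any 1 set (0.0839 to 0.233). Its net call was lost with scaled arrays (limma adjusted p = 0.0513), with the net dye sign as a covariate (0.0521) and without any 1 set (0.104 to 0.145). UFO, an F-box gene of the floral meristem and petal domain, rose from day 0 to day 1 (0.299, limma adjusted p = 0.000814) and fell from day 3 to day 4 (-0.188, adjusted p = 0.0427) and from day 4 to day 5 (-0.230, adjusted p = 0.0186), which left a net of -0.176 (adjusted p = 0.382). In these intervals 3.32%, 1.35% and 0.758% of all features were called in either direction. The first of these UFO calls was lost without set 2 (adjusted p = 0.0680), and both later ones without set 1, 2 or 4 (0.0984 to 0.435). The UFO call from day 3 to day 4 was also lost with the tissue set as a block (limma adjusted p = 0.0811), and that from day 4 to day 5 with scaled arrays (0.140). LAS, a gene of organ boundaries, had a net of -0.00599 and was not called in any interval. ARR15 had a Pearson r of 0.180 with CLV3 and -0.437 with UFO over the 20 arrays, dye coefficient removed. The part of meristem cells in the ARR15 result was not tested.

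The genes whose pattern was most like that of each regulator were taken from those that changed in any interval and had values on all 20 arrays, 765 for ARR15 and 764 for ARR16. Likeness was the Pearson r over the 20 ratios after removal of the dye coefficient, a description of arrays that share sets and neighbouring samples. For ARR16 the 5 highest were AT3G14760 (0.850), AT2G43030 (0.826), AT5G01610 (0.825), AT3G56220 (0.819) and AT5G50130 (0.819). From day 3 to day 4 the mean log10 ratios of these 5 were 0.367, 0.237, 0.371, 0.563 and 0.349, each the largest of that gene's 5 intervals. The genes were picked for likeness to ARR16 over the same arrays. A peak in the interval where ARR16 was highest therefore follows largely from the choice. AT2G43030 owed its place to the dye step, since its r was 0.316 with the dye effect left in. MUTE came directly after these, with 5 of the 764 genes above it, and its r was 0.681 with the dye effect left in. The stomatal list was chosen with earlier results of these data known, so the rank of MUTE is a description only.

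For ARR15 the 5 highest were AT3G25640 (0.867), AT2G34330 (0.808), AT3G06035 (0.791), AT1G24735 (0.790) and AT5G58900 (0.788). AT3G25640 had mean log10 ratios of -0.248, -0.265, -0.0339, -0.172 and -0.152 over the 5 intervals, low where ARR15 was low. That likeness is what the gene was picked for. A high r does not require the same direction of change: AT3G06035 had mean ratios of 0.0586, -0.0461, 0.230, 0.167 and 0.0572, mostly above 0. With the dye effect left in, 4 of the 5 genes for ARR15 and 3 of the 5 for ARR16 stayed among the nearest 5. By the 5 interval means alone, 2 and 1 did.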

How the data were processed

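Per the labels' protocols, transcription in vitro amplified the polyA RNA, and dyes were coupled to it and switched between sets. The values deposited by the authors were read as log10 ratios, because every array stops exactly at 2 and -2, which is 100-fold. Background correction, normalization, log base, numerator and genome build are not stated in labels or headers. Array medians of -0.00333 to 0.0120 point to centring of unknown kind. Signal over background was not in the table, so dim probes could not be left out, and the number of arrays limits the precision.

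The values were taken as Cy5 over Cy3, and arrays on which Cy3 marked the later day had their sign turned. On 15 or more arrays 416 probes stood at the upper limit and 0 at the lower one, whichever dye held the later day. Pairs of arrays of 1 interval and opposite dyes had a median correlation of 0.587 as deposited, and of -0.117 after subtraction of each feature's mean over arrays (2 of 20 pairs above 0). Same-dye pairs had -0.0108 after it. Left unturned, the sums of the 4 sets spread over -0.201 to 0.493 for ARR15 and over -1.52 to -0.248 for ARR16.

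Of 30741 spots, 547 control or unannotated ones were left out. Of the remaining 30194 probes 18740 had 1 gene name, 1 several and 11453 none, and 18645 matched the RefSeq gene table of TAIR10.1, used for names only. Probes of a gene were averaged, and a feature needed 3 of 4 arrays in every interval. limma 3.58.1 in R 4.3.3 fitted 5 interval coefficients and 1 dye coefficient (14 residual and 2.07 prior degrees of freedom). Day 5 against day 0 used the sums within sets (28615 features, 3 residual and 1.72 prior degrees of freedom). Two-sided p-values were adjusted over all features (Benjamini-Hochberg, threshold 0.05), and the code was tested on simulated data.

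The set numbers pair samples, since the series' design text gives each set as shared tissue. Deviations from the interval means (dye effect removed) had a median correlation across features of -0.0852 between neighbouring intervals of 1 set and of 0.0411 between those of different sets. The former ran from -0.159 to 0.143, inside the range of -0.236 to 0.303 of the latter. These correlations therefore do not show the pairing by themselves. The regulators and gene lists were chosen with earlier results of these data known. Named were both regulators, the measured marker genes, called cytokinin genes and the 5 nearest genes to each regulator, and the 7 other cytokinin genes, none of them called, fall outside that rule where named by value. Alternatives were unturned ratios, the set as a block, no dye coefficient, arrays scaled to 1 median absolute ratio, limit values left out, single-interval fits, other filters, unaveraged probes, other forms of the net change, and each set left out.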

Additional observations from a re-analysis of the deposited data

Results flagged for a closer look

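No value of ARR15 or ARR16 stood apart from its group. Of 82 groups of 4 sets examined among the named genes, 4 held a set far from the others, and chance gives about 1 in 20. They were ARR19 from day 1 to day 2, with -0.156 in set 2, ARR24 from day 0 to day 1, with -0.500 in set 3, UGT76C1 from day 4 to day 5, with 0.119 in set 2, and the net sum of FAMA, with 2.63 in set 3.

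In 3 genes all sets of 1 interval lay above 0 and all sets of another below. The log10 ratio of UFO differed by -0.488 between day 3 to day 4 and day 0 to day 1 (limma adjusted p = 0.000527), and by -0.529 between day 4 to day 5 and day 0 to day 1 (adjusted p = 0.000235). LAS differed by -0.236 between the change from day 3 to day 4 and that from day 1 to day 2 (limma adjusted p = 0.0466), and by -0.202 for day 4 to day 5 against the same interval (adjusted p = 0.0794). ARR24 differed by 0.232 between day 3 to day 4 and day 0 to day 1 (limma adjusted p = 0.646).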

How the results depend on the processing

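Of 206 comparisons of a result with an alternative that kept all 4 sets, 174 kept call and direction, or nearly the same count. Such a count could change: 4 ARR16 day pairs passed in the main fit and 5 without limit values. Results that passed neither time are among the 174. Each regulator had 1 probe, no missing value and none at the limit of the scale. Other filters, unaveraged probes and limit values left out could therefore change its adjusted p but not its ratios. The tally is thus no measure of how robust the calls are. Reading the ratios as already turned reversed ARR15 to 0.132, 0.0201, 0.0797 and 0.0142 in the first 2 and last 2 intervals and 0.228 net, and ARR16 to -0.0986 (day 0 to day 1), -0.158 (day 3 to day 4), -0.660 (net), -0.416 (day 2 to 4), -0.321 (day 2 to 5) and -0.0630 (day 3 to 5). The difference between them became -0.231, -0.261, -0.240 and -0.238 in the first 4 intervals and -0.888 net, the ARR16 F test had a limma adjusted p of 0.667 and 0 of its day pairs passed, MUTE became -0.0341 (day 3 to 4), CLV3 0.0573 (day 4 to 5) and 0.130 (net), and UFO -0.0451 (day 0 to 1) and 0.0506 (day 4 to 5). With the replicate block (tissue set), the adjusted p was 0.0184 for ARR16 from day 3 to day 4, 0.0602 for its F test, and, for net changes formed from coefficients, 0.215 for ARR15 (-0.611) and 0.0987 for ARR16 (0.943); 1 ARR16 day pair passed, and the ARR16 minus ARR15 calls held. With no dye coefficient the F test had a limma adjusted p of 0.0611 and 1 day pair passed. Scaled arrays gave 0.0247 for ARR16 from day 2 to day 3, a limma adjusted p of 0.0342 for its F test between intervals, 1 differing interval pair, 7 differing day pairs, and 1 for ARR15. Without limit values that F test had a limma adjusted p of 0.0444 and 1 interval pair differed. The 4 arrays alone gave ARR16 0.668 with adjusted p = 0.209, summed coefficients gave ARR15 -0.611 with 0.106, and the exact sign-flip tests of the differences of 0.755 and 1.55 gave 0.125.

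Leaving out 1 set at a time gave ARR15 -0.274 to -0.0685 (day 0 to 1), -0.0630 to 0.0896 (day 2 to 3), -0.127 to -0.0467 (day 3 to 4), -0.158 to -0.0547 (day 4 to 5) and -0.629 to -0.591 (net), and ARR16 -0.137 to 0.0618 (day 1 to 2), -0.0791 to 0.0647 (day 2 to 3), 0.630 to 0.705 (day 3 to 4), -0.0184 to 0.311 (day 4 to 5) and 0.884 to 0.993 (net). The difference ranged from -0.0850 to 0.128 (day 2 to 3), 0.677 to 0.832 (day 3 to 4), 0.0559 to 0.470 (day 4 to 5) and 1.50 to 1.61 (net). F test p-values for ARR16 ranged from 0.0250 to 0.234 (any interval) and 0.0497 to 0.397 (between intervals), differing day pairs from 0 to 3 for ARR16 and 0 to 1 for ARR15, and called cytokinin genes other than these from 0 to 1. Calls across all features numbered 950, 329, 120, 387 and 217 by interval and 821 net. They numbered 605, 147, 57, 228 and 114 with the block, 675, 214, 80, 289 and 154 with no dye coefficient, 814, 1071, 601, 804, 1103 and 2170 net read as turned, 1135, 135, 122, 662 and 92 scaled, 5, 0, 0, 1 and 0 with 4 arrays alone (at unadjusted p under 0.05, 2653, 1754, 1322, 2107 and 1142), and 329 net with the dye sign as covariate. Without 1 set they ranged over 195 to 1040, 0 to 341, 0 to 189, 108 to 337 and 35 to 96, and 0 net (3620 to 4699 at unadjusted p under 0.05).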
